A study of Mus musculus with 14 samples.

Results

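The GIMAP genes encode GTPases of immunity-associated proteins, a family of small GTP-binding proteins found mainly in lymphocytes. The 8 rows of the deposited gene counts named Gimap1, Gimap3, Gimap4, Gimap5, Gimap6, Gimap7, Gimap8 and Gimap9 were taken by symbol, and all 8 were found among 41053 gene rows. RNA had been sequenced in 14 libraries of C57BL/6 mouse spleen B cells, counted in 2 tables. The first table held germinal center (GC) B cells, the dividing B cells that mutate their antibody genes and select for higher affinity, with 3 wild-type libraries (WT, replicates 1, 3 and 4) and 4 whose label gives a TET2 knock-out genotype (KO, replicates 2 to 5). The second table held lymphoma B cells, with 2 libraries labelled as Tet2 knock-down (shTet2, replicates 1 and 2) and 5 controls (replicates 1 to 5) whose Tet2 genotype is labelled wild-type. TET2 is an enzyme that oxidises the methyl group of cytosine, and the series profiles RNA in cells that lack it or have less of it. The sources used here give no age, sex, allele, Cre driver, hairpin, cell purification or origin of the lymphoma. The family was proposed for description with results of these data in view, and its members were selected on their counts in these same libraries, by a contrast that is not recorded, so their values, and any count of members past a threshold, are a description and support nothing.

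GIMAP proteins share a GTP-binding domain related to that of septins, and several sit on intracellular membranes such as lysosomes or mitochondria. Gimap5, a lysosomal member, is needed for the survival of resting T cells, and its loss causes lymphopenia in rodents. Gimap1 is needed for the survival of mature T and B cells, Gimap3 resides on the mitochondrial outer membrane, Gimap6 binds a GABARAP protein of the autophagy machinery, and Gimap8 carries more than a single GTPase domain.

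Tet2 itself served as a check of the labels. Its whole-gene count had means of 13.2 ± 1.22 CPM (counts relative to the scaled library total) in WT and 13.5 ± 1.26 CPM in the libraries labelled KO (ranges 11.8 to 14.2 and 11.9 to 14.6 CPM, log2 fold change 0.04, SE 0.13, edgeR adjusted p = 0.909), and of 61.1 ± 4.74 and 52.8 ± 2.99 CPM in control and shTet2 lymphoma (ranges 57.5 to 68.0 and 50.7 to 54.9 CPM, log2 fold change -0.21, SE 0.10, edgeR adjusted p = 0.295). Which part of the gene was deleted is not stated, and a sum over all exons cannot check a deletion of some of them, so directions rest on the labels. Total counts were 27191862 to 30434184 in GC libraries and 6691167 to 18598386 in lymphoma libraries. In the latter, 8 rows that each exceeded 1% of a lymphoma library (among them Yam1, mt-Rnr2 and Lars2) took 45.8% to 81.1% of counts. The shares were 54.9% and 45.8% in shTet2 replicates 1 and 2 and 58.6% to 81.1% in controls, without overlap between the groups. Whether this difference in share plays a part in the shTet2 comparison was not tested. In GC libraries the same rows took 0.40% to 1.34%. The 8 members together had between 3095 and 35494 counts per library, and the thinnest, Gimap5 in control lymphoma replicate 2, had 102.

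The cluster spans 119 kb on chromosome 6 (chr6:48647234-48766519, GRCm38). Along the chromosome the rows run Gimap8, Gimap9, Gimap4, Gimap6, Gimap7, Gimap1, Gimap5 and Gimap3, of which Gimap6 and Gimap3 lie on the minus strand and the others on the plus strand. The counted exon lengths range from 906 bases for Gimap3 to 3654 bases for Gimap8. Some of the rows share exon sequence with rows that are no members. Gimap1 shares 103 exon bases with the antisense row Gimap1os, and a readthrough row, Gm28053, shares 98 bases with Gimap1, 109 with Gimap5 and 81 with Gimap7, at most 6.38% of the member's exon bases. The kit kept strand but the counting command used no strand option, so reads from Gimap1 and its antisense partner cannot be told apart where they overlap.

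The bases before the annotated start are shown for the 3 members with the larger differences described below (Gimap4, Gimap7 and Gimap3) and for 3 with smaller ones, of which Gimap8 lacks the marked core and Gimap6 and Gimap5 hold it. The matches of Gimap9 and Gimap1 lie after the start, and their sequences are not shown. Each line gives 250 bases upstream of a RefSeq start (GRCm38.p6), 5' to 3' on the gene's strand, with the core GGAAGT in capitals, a sequence bound by ETS-family transcription factors.
Gimap4 (chr6:48684328-48684577, plus strand): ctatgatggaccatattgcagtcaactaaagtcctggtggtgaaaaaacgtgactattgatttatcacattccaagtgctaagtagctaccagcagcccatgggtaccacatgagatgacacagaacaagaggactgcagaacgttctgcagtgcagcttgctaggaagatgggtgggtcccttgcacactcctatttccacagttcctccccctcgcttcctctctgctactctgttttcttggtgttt
Gimap7 (chr6:48718371-48718620, plus strand): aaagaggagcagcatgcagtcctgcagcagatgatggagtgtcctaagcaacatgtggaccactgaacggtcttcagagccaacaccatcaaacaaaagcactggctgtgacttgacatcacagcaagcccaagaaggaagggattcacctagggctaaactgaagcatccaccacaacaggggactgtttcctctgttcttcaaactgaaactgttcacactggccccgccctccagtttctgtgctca
Gimap3 (chr6:48770852-48771101, minus strand): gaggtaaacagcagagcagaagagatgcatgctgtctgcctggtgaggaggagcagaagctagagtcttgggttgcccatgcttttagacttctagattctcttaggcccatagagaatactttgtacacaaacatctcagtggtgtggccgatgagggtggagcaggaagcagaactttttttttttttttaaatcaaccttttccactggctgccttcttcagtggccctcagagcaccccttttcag
Gimap8 (chr6:48646984-48647233, plus strand): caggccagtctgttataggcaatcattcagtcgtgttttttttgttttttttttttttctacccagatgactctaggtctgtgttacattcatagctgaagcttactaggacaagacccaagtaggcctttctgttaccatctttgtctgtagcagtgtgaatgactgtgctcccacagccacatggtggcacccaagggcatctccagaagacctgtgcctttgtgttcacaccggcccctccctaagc
Gimap6 (chr6:48708245-48708494, minus strand): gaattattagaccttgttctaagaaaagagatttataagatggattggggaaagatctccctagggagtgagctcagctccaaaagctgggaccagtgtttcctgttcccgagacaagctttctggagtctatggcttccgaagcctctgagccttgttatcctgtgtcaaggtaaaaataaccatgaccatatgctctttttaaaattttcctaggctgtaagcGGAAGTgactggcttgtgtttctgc
Gimap5 (chr6:48745947-48746196, plus strand): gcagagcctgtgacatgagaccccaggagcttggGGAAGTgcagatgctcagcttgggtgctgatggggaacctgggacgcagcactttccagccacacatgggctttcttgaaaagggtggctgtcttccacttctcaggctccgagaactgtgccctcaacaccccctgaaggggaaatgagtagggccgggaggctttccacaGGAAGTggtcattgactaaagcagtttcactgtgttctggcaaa

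Promoter windows of 300 bases, 250 before to 50 after the start, were found for all 8 members, with 9 windows because Gimap8 has a second start. They held between 2 and 8 CG dinucleotides, and the median over all 32851 promoter windows in the table was 7. The sequence GGAAGT, a longer form of the ETS core, was searched on both strands as GGAAGT or ACTTCC. It was in the windows of 4 members, Gimap9, Gimap6, Gimap1 and Gimap5, with 2 matches each in Gimap9 and Gimap5. It was in 23.8% of all promoter windows. No match to this form was present in the windows of Gimap4, Gimap7, Gimap3 and Gimap8. Other forms of the ETS core were not searched, and the shorter GGAA does occur in the printed bases of Gimap4, Gimap7 and Gimap3. A lack of GGAAGT is therefore not a lack of ETS sites. The RUNX core TGTGGT, searched as TGTGGT or ACCACA, was in the windows of Gimap4, Gimap7 and Gimap1 and in 16.8% of all windows. The motifs do not overlap each other in sequence, and these matches describe letters only, not binding. For Gimap3 the RefSeq start lies outside the counted row, whose span ends at position 48766519, so its window describes the annotation rather than the row.

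In GC B cells every member was lower in the libraries labelled KO than in the WT libraries. Gimap4, Gimap7 and Gimap3 were lower by 57.1%, 52.8% and 50.2%, and the other members were lower by 18.6% to 26.2%. CPM were scaled with TMM factors over the 7 GC libraries, and fold changes are from edgeR's quasi-likelihood fit over 13600 genes. The 8 log2 fold changes ran from -1.22 to -0.30 with a median of -0.41, and the median over all genes tested was 0.0083. With this design 7 of the 8 members passed an adjusted p of 0.05 and all of these were lower, where 4.57% of all genes tested were called lower and 6.49% were called in either direction. All 8 members had KO and WT values that did not overlap, where 10.6% of all genes were without overlap and lower. Since the members were proposed with these results known, nothing is read from either count.

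Gimap4, a member studied mostly in T cells, had 218, 217 and 231 CPM in WT replicates 1, 3 and 4. In the libraries labelled KO, replicates 2 to 5, its values were 103, 95.8, 92.3 and 90.4 CPM. Every KO library lay far below every WT library, and the spread within each group was small. The means were 222 ± 8.13 CPM (SD, n = 3) in WT and 95.4 ± 5.53 (SD, n = 4) in KO, a log2 fold change of -1.22 with a standard error (SE) of 0.08.

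Gimap7, a member that hydrolyses GTP when it forms dimers, had 56.9, 59.3 and 61.1 CPM in the WT libraries. Its KO values were 30.8, 26.3, 26.7 and 27.7 CPM. The groups were again well apart, with a log2 fold change of -1.08 (SE 0.09).

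The mitochondrial member Gimap3 had 50.04, 43.5 and 54.3 CPM in WT, against 21.7, 27.4, 21.4 and 27.7 CPM in KO. Its KO libraries formed a high pair, replicates 3 and 5, and a low pair, both below the lowest WT value. The log2 fold change was -1.004 (SE 0.12).

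**Figure D1:**
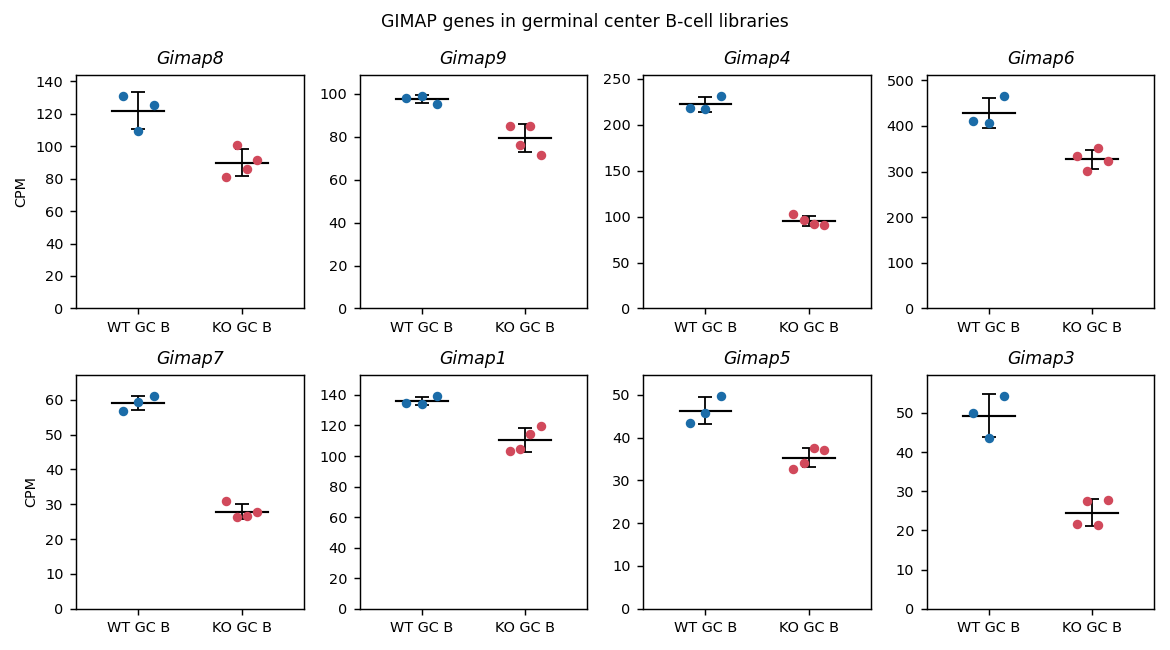
CPM of each GIMAP gene in the 7 GC B-cell libraries, scaled within that table. Points are libraries, black lines are group means and bars are 1 SD (WT n = 3, KO n = 4); each axis starts at 0. In all 8 panels the KO points lie below the WT points, with the widest gaps for Gimap4, Gimap7 and Gimap3.

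Gimap6, the autophagy-linked member and the family's highest in CPM, had 411, 407 and 466 CPM in WT and 334, 301, 351 and 323 CPM in KO. The nearest libraries of the groups, KO replicate 4 and WT replicate 3, were closer than for Gimap4, and the log2 fold change was -0.39 (SE 0.09). Gimap5 had 43.4, 45.6 and 49.7 CPM in WT and 32.7, 34.2, 37.5 and 37.0 CPM in KO. Its log2 fold change of -0.39 (SE 0.09) was close to that of Gimap6, although its level was lower by far.

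Gimap8 had means of 122 ± 11.3 CPM in WT and 89.8 ± 8.32 CPM in KO, with a log2 fold change of -0.44 (SE 0.09). Gimap1, the mature lymphocyte survival factor, had means of 136 ± 2.81 and 110.6 ± 7.73 CPM and a log2 fold change of -0.30 (SE 0.08). Gimap9, for which 97.5 ± 1.93 and 79.4 ± 6.67 CPM were measured, also had a log2 fold change of -0.30 (SE 0.09) and was the member that did not pass the threshold. Leaving out WT replicate 4 alone reduced the number of members past the threshold from 7 to 4, namely Gimap8, Gimap4, Gimap7 and Gimap3.

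The unequal differences changed the make-up of the family's RNA. Per kb of exon, the scale on which genes can be compared with each other, Gimap6 (122 ± 9.47 CPM per kb) and Gimap4 (121 ± 4.42) were the highest members in WT, and their ranges overlapped. Gimap1 came next at 72.7, then Gimap9 at 59.4, Gimap3 at 54.4 and Gimap7 at 46.5, with overlapping ranges for Gimap9 and Gimap3 and for Gimap3 and Gimap7. Gimap8 at 33.3 and Gimap5 at 19.7 CPM per kb were lowest. In KO libraries Gimap6 stood alone at the top with 93.6 ± 6.04 CPM per kb, and Gimap4 at 51.9 was the third, overlapping in range with Gimap1 above it and Gimap9 below it. The share of Gimap4 in the family's summed CPM per kb was 22.8% ± 0.23 in WT and 15.2% ± 0.96 in KO, while the shares of Gimap1 (13.7% and 17.3%), Gimap9 (11.2% and 14.2%) and Gimap6 (23.1% and 27.4%) were higher in KO. Summed over the 8 members, WT libraries had 510.1 to 555 CPM per kb and KO libraries 334 to 348.

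In lymphoma B cells no member passed the threshold between shTet2 and control libraries, and the 8 log2 fold changes lay on both sides of 0. Of these 5 were positive and 3 negative, from -0.22 to 0.36, with a median of 0.05, and the median over the 12797 genes tested was -0.0041. edgeR called 0 members, with 2 members (Gimap7 and Gimap3) at an unadjusted p under 0.05, and DESeq2 also called 0, with 1 member at an unadjusted p under 0.05. Of all genes tested, 2.58% were called. CPM in this table were scaled over its own 7 libraries and are not on the same scale as the GC values above.

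Gimap4 had 166, 203, 160, 180 and 146 CPM in control replicates 1 to 5. The shTet2 libraries had 160 CPM (replicate 1) and 242 CPM (replicate 2). The first shTet2 library fell inside the control range and the second above it, and the log2 fold change was 0.24 (SE 0.16). Gimap7 had 28.3, 28.9, 34.2, 33.4 and 25.4 CPM in controls and 32.1 and 45.4 CPM in shTet2, with the same split between the replicates and a log2 fold change of 0.36 (SE 0.15). Gimap3 had 26.8, 29.4, 31.3, 34.7 and 29.9 CPM in controls and 32.3 and 42.1 CPM in shTet2, a log2 fold change of 0.28 (SE 0.13).

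Gimap6 was the only member of the 8 whose lymphoma groups did not overlap, with 259, 276, 209, 220.3 and 239 CPM in controls against 208 and 203 CPM in shTet2. The lowest control library was within 1 CPM of the higher shTet2 library, and the log2 fold change was -0.22 (SE 0.11). Non-overlap in either direction was found for 21.2% of all genes tested. Gimap5 (0.09), Gimap9 (0.02), Gimap8 (-0.05) and Gimap1 (-0.05) had log2 fold changes within 1 SE of 0.

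**Figure D2:**
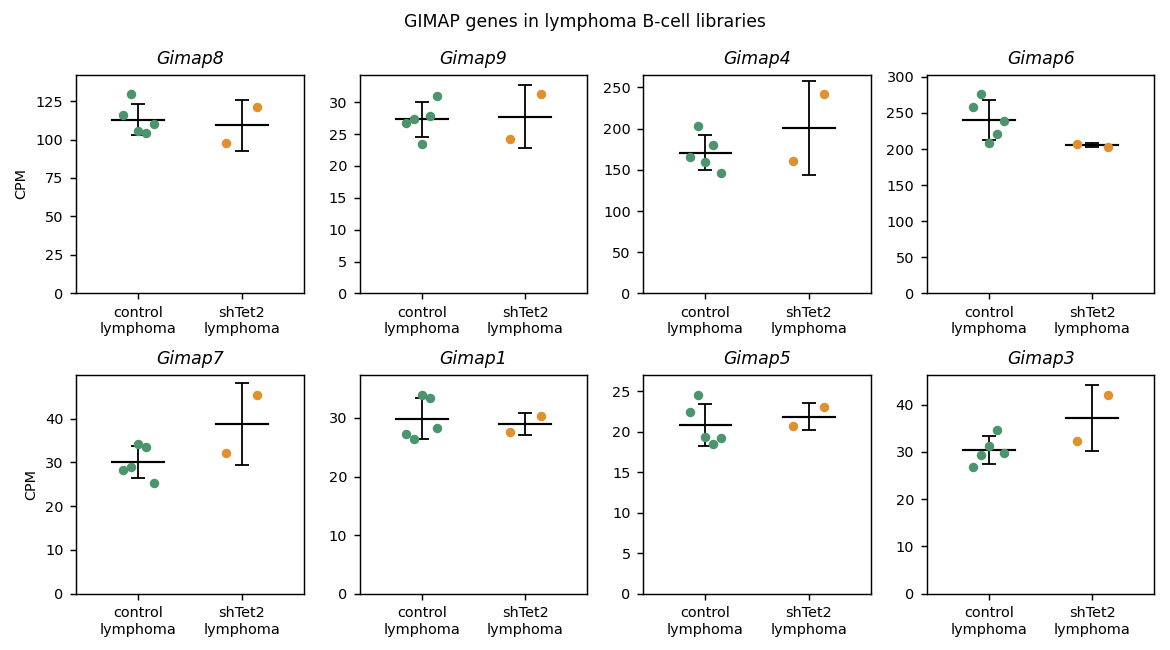
CPM of each GIMAP gene in the 7 lymphoma B-cell libraries, scaled within that table. Points are libraries, black lines are group means and bars are 1 SD (control n = 5, shTet2 n = 2); each axis starts at 0. For Gimap4, Gimap7 and Gimap3 1 shTet2 library lies above all controls and the other lies among them.

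These values rested on single shTet2 libraries. Without shTet2 replicate 1, Gimap4, Gimap7 and Gimap3 had log2 fold changes of 0.49, 0.58 and 0.45. Without shTet2 replicate 2 the corresponding values were -0.09, 0.09 and 0.08. In those fits the lone shTet2 library is assumed to vary like the controls. The same replicate 2 had a summed level of 261 CPM over 16 myeloid marker genes, against 81.1 CPM in replicate 1 and 104 to 194 CPM in controls, and 2988 CPM over the naive and resting lymphocyte genes described below, against 4153 in replicate 1 and 4429 to 4816 in controls. The part of these differences in the GIMAP values was not tested.

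The difference between the lymphoma and GC effects, fitted as a contrast over all 14 libraries, was positive for all 8 members. It was 1.42 (SE 0.17) on the log2 scale for Gimap4, 1.41 (SE 0.17) for Gimap7 and 1.25 (SE 0.18) for Gimap3, and 0.13 to 0.45 for the other members. These 3 members were past the threshold, where 4.99% of 15441 genes were called. As the members were proposed with these results known, nothing is read from that count. Cell source, table, sequencing depth and the kind of Tet2 loss (labelled knock-out or knock-down) all differ between the 2 comparisons and cannot be told apart.

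**Figure D3:**
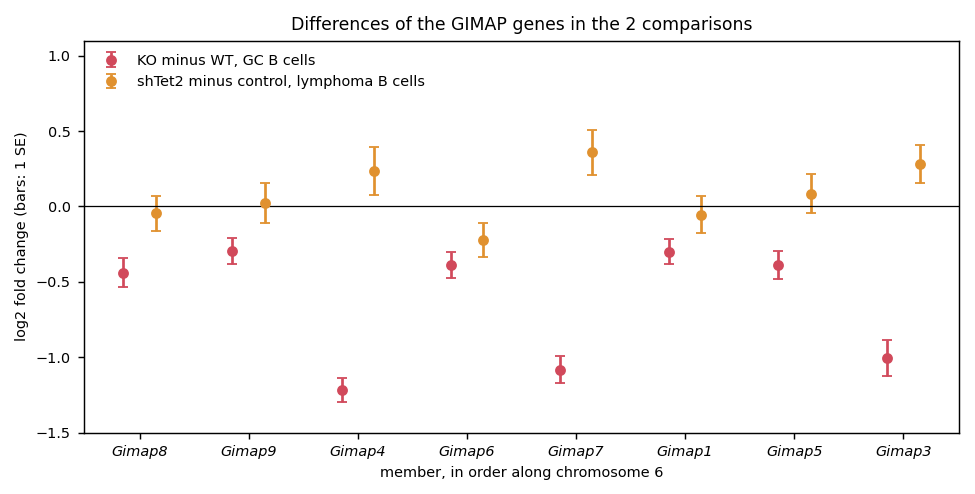
Log2 fold changes of the GIMAP genes in GC B cells (KO minus WT, red) and in lymphoma B cells (shTet2 minus control, orange), in the order of the genes along chromosome 6. Bars are 1 SE of the edgeR fit. All 8 GC values are below 0, from -1.22 to -0.30, and the lymphoma values lie between -0.22 and 0.36.

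To set the levels of all 4 groups side by side, CPM were also scaled with TMM factors over the 14 libraries, called the common scale here. On that scale Gimap4, Gimap7 and Gimap3 ran in the order shTet2 lymphoma, control lymphoma, WT GC and KO GC. Gimap4 had 315 ± 90.0 CPM in shTet2 (n = 2), 264 ± 31.0 in control lymphoma (n = 5), 140.2 ± 4.53 in WT (n = 3) and 62.4 ± 3.76 in KO (n = 4). The 2 lymphoma groups overlapped in each of these genes, and the other neighbours in the order did not. Gimap5 followed the same order, but its control lymphoma and WT ranges also overlapped, at 32.1 ± 3.70 and 29.2 ± 1.95 CPM.

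Gimap8 and Gimap6 were also higher in lymphoma than in GC libraries, with control lymphoma first and KO GC last. Gimap8 had 174 ± 14.2 CPM in control lymphoma and 76.8 ± 6.76 in WT GC. Gimap1 and Gimap9 had the opposite order, with WT GC highest. Gimap1 had 85.9 ± 1.40 CPM in WT, 72.3 ± 4.92 in KO, 46.2 ± 5.65 in control lymphoma and 45.4 ± 3.01 in shTet2, and its 2 lymphoma groups overlapped. Gimap9 had 61.6 ± 1.54 CPM in WT, 51.9 ± 4.48 in KO, 43.5 ± 7.73 in shTet2 and 42.2 ± 4.25 in control lymphoma, and its last 3 groups overlapped with their neighbours in the order.

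Control lymphoma against WT GC gave log2 fold changes of 1.18 for Gimap8, 0.91 for Gimap4, 0.60 for Gimap3, 0.46 for Gimap6, 0.32 for Gimap7, 0.12 for Gimap5, -0.55 for Gimap9 and -0.88 for Gimap1. Of all genes tested 80.7% were called in this contrast, so the 7 members called are near the background. Scaling moved this contrast as a whole: the median over all genes was -0.03 with TMM, 0.11 with median-of-ratios factors and 0.38 with upper-quartile factors. The sign of each member was kept under all 19 alternatives, but Gimap5 came down to 0.01 without a filter on low counts and Gimap9 was -0.14 with upper-quartile factors. Other lists are set beside that share of 80.7%, which counts both directions. All 23 tested genes of the resting and naive list described below were called higher (median log2 fold change 1.94). Of 20 T-cell markers 17 were called higher and 2 lower (median 2.50). All 8 tested NK-cell markers were called higher (median 2.66). Of 15 myeloid markers 7 were called, all higher (median 0.48), a smaller share than over all genes. The part of these lists in the GIMAP values was not tested. Relative to the median gene under TMM, the values were 1.21 for Gimap8 and -0.85 for Gimap1. Cell source and table coincide in this contrast and cannot be told apart.

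**Figure D4:**
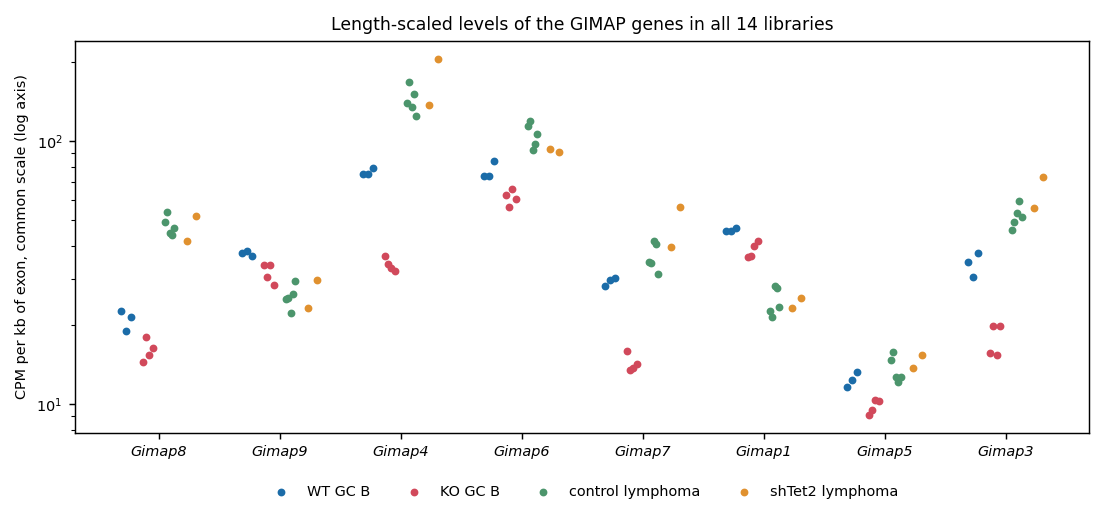
CPM per kb of exon on the common scale for each GIMAP gene in all 14 libraries (log axis). Points are libraries, coloured by group. Gimap4, Gimap7, Gimap3 and Gimap8 are highest in the lymphoma groups and lowest in KO GC libraries, while Gimap1 and Gimap9 are highest in WT GC libraries.

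The rows around the cluster did not all follow it. Within 300 kb of its ends lie 26 other rows, of which 10 passed the filter in GC B cells. Of these, 2 were higher and 2 lower in the libraries labelled KO, beside 1.92% and 4.57% of all genes, by edgeR's quasi-likelihood test with Benjamini-Hochberg adjustment. Tmem176b and Tmem176a, adjacent genes for membrane proteins known from myeloid and dendritic cells, lie beyond the Gimap3 end of the cluster. Tmem176b rose, with 1.42, 1.53 and 1.34 CPM in WT and 6.20, 4.76, 5.51 and 4.15 CPM in KO (log2 fold change 1.85, SE 0.22, adjusted p = 9.55e-05). Tmem176a had 0.93, 1.76 and 0.93 CPM in WT and 2.80, 3.12, 3.03 and 1.67 CPM in KO (1.13, SE 0.31, adjusted p = 0.0392). Its groups overlapped through WT replicate 3 and KO replicate 5, and its call was lost without KO replicate 2, 3 or 4 or without WT replicate 1 or 4.

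Gimap1os, the antisense row over Gimap1, fell, with 7.04 ± 0.81 CPM in the WT and 4.03 ± 0.60 CPM in the KO libraries (log2 fold change -0.80, SE 0.18, adjusted p = 0.0108). It was counted without strand, and reads on the exon bases it shares with Gimap1 are counted for neither row, so the row is uncertain. Lrrc61, a leucine-rich repeat gene before the Gimap8 end, fell from 26.5 ± 1.12 to 20.3 ± 2.11 CPM (-0.39, SE 0.11, adjusted p = 0.0453). That call was kept without KO replicate 4 and lost without any other single library. The zinc finger genes Zfp467 (-0.34), Repin1 (-0.28) and Zfp775 (-0.07), and Krba1 (0.08), did not pass the test. In lymphoma cells 8 of the 26 rows were tested and edgeR and DESeq2 called 0 of them, with 2 (Lrrc61 and Tmem176a) at an unadjusted p under 0.05 in edgeR. Without shTet2 replicate 1 edgeR called 1.

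**Figure D5:**
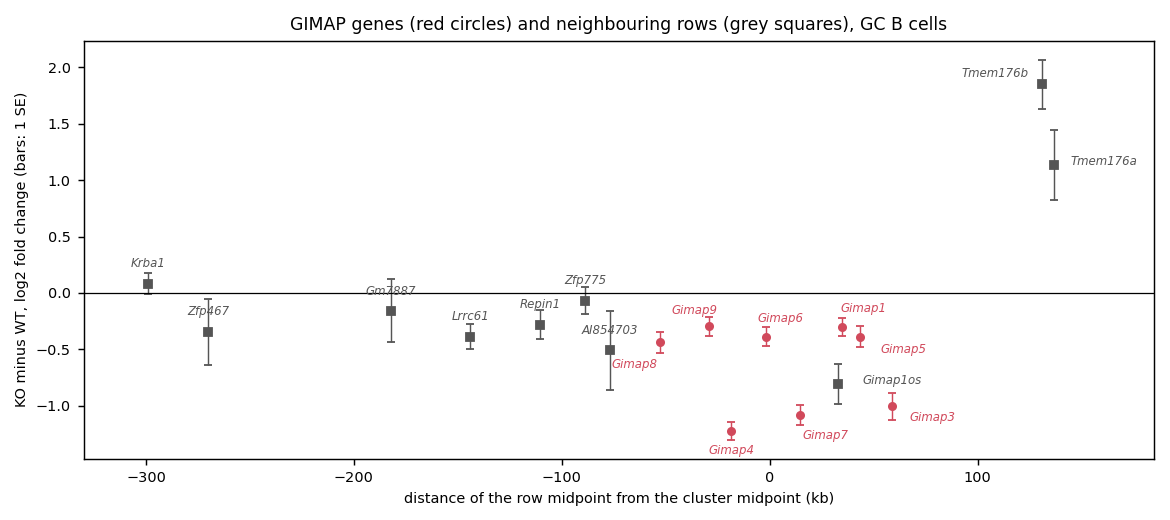
KO minus WT log2 fold change in GC B cells against the distance of each row's midpoint from the cluster midpoint, for the 8 GIMAP genes (red circles) and the 10 neighbouring rows tested (grey squares). Bars are 1 SE. The GIMAP genes lie between -1.22 and -0.30, Tmem176b and Tmem176a lie at 1.85 and 1.13, and the remaining neighbours lie between -0.80 and 0.08.

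Genes that act with GIMAP proteins in lymphocyte survival were called about as often as all genes in GC B cells. Of 18 listed genes of the BCL-2 family, autophagy, calcium and related signalling, all were tested in GC B cells, where 0 were higher and 1 lower, beside 6.49% of all genes. The median log2 fold change was -0.02. The gene called was Nfatc1, a calcium-responsive transcription factor, which fell from 268 ± 31.0 to 209 ± 18.7 CPM (log2 fold change -0.36, SE 0.10, edgeR adjusted p = 0.0392). That call was lost without any of 5 single libraries, namely KO replicate 2, 4 or 5 or WT replicate 1 or 3. In lymphoma cells edgeR and DESeq2 called 0 of the 18, with 3 at an unadjusted p under 0.05 in edgeR and a median of 0.03. The nearest to a call were Ctnnb1, the signalling protein beta-catenin, at 0.28 (SE 0.10, edgeR adjusted p = 0.165) and Prkcb, a protein kinase C of B-cell receptor signalling, at -0.21 (SE 0.09, edgeR adjusted p = 0.234).

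Some genes of resting and naive lymphocytes fell in the KO GC libraries alongside the lower GIMAP values. Of 24 listed, 23 were found and 22 tested, and 0 were higher and 6 lower by edgeR's test, beside 4.57% of all genes called lower. The median log2 fold change of the list was -0.22, against 0.0083 for all genes. Cd38, an ectoenzyme that GC B cells of the mouse express at a low level, fell from 79.4 ± 7.99 to 40.5 ± 4.51 CPM (log2 fold change -0.97, SE 0.10, edgeR adjusted p = 4.24e-05). Faim3, the Fc receptor for IgM, fell from 635 ± 35.5 to 393 ± 37.1 CPM (-0.69, SE 0.09, edgeR adjusted p = 1.78e-04). Ccr7, the receptor that guides lymphocytes to the T-cell zone, fell from 30.7 ± 6.54 to 16.6 ± 2.75 CPM (-0.89, SE 0.15, edgeR adjusted p = 0.00232). Among the others called were S1pr1 and Cd55, with log2 fold changes of -0.51 and -0.46. Other genes of the list, Bach2 among them (0.33, SE 0.10, edgeR adjusted p = 0.0741), had positive values without a call. Whether this list's difference plays a part in that of the GIMAP genes was not tested. In bulk libraries, fewer cells of a type and less RNA per cell cannot be told apart.

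In lymphoma cells the same list had a median log2 fold change of -0.41, and edgeR called 0 of 23 tested genes while DESeq2 called 6. At an unadjusted p under 0.05 there were 12 in each tool. Bach2, a repressor that holds B cells back from plasma cell fate, had -0.59 (SE 0.15, edgeR adjusted p = 0.064) and Ccr7 had -0.82 (SE 0.20, edgeR adjusted p = 0.0720). With each library left out in turn, the log2 fold change of Bach2 was -0.89 to -0.34 and that of Ccr7 was -1.26 to -0.49.

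Markers of other cells were measured beside the family. In GC libraries 8 pan-B-cell genes, such as Cd79b and Ms4a1, summed to 8582 to 9566 CPM with 0 of 8 called in edgeR or DESeq2, and 1 of them, Cd22, at an unadjusted p under 0.05. The GC genes Bcl6, S1pr2 and Nuggc had 411 ± 51.7, 472 ± 45.7 and 510.0 ± 48.3 CPM in WT, and 0 of 8 tested GC markers were called or had an unadjusted p under 0.05 in either tool. Lymphoma libraries carried the B-cell genes (2546 to 3055 CPM within their table), but the GC list summed to 120 to 151 CPM in controls and 196 to 229 CPM in shTet2. All 8 tested GC markers were lower in control lymphoma than in WT GC cells, with a median log2 fold change of -5.75. S1pr2, a GC confinement receptor, rose in shTet2 lymphoma from 3.43 ± 1.98 to 24.1 ± 8.23 CPM (log2 fold change 2.73, SE 0.44, edgeR adjusted p = 0.0297). That call was kept in 3 of 7 fits that left out a library, and lost without shTet2 replicate 2 or control replicate 1, 2 or 3. Fas, a death receptor and the other GC marker called, had 2.94 ± 0.68 CPM in controls and 7.06 ± 0.92 CPM in shTet2. Its log2 fold change was 1.29 (SE 0.23, edgeR adjusted p = 0.0148), and its values with a library left out are not given. The 2 called of 8 tested stand beside 2.58% of all genes, and edgeR called 0 of the 8 B-cell genes in this comparison, with 3 at an unadjusted p under 0.05. DESeq2 called 4 of the GC markers and 2 of the B-cell genes.

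Most tested myeloid markers were, like the GIMAP genes, lower in the GC libraries labelled KO. Of 16 listed, 10 were tested and 9 were lower in KO, beside 4.57% of all genes called lower, with a median log2 fold change of -1.22, and their summed level was 132 to 151 CPM in WT and 76.5 to 79.5 CPM in KO. None of the 16 was at 0 in either group. Mpeg1, a perforin-like gene of phagocytes, had 73.9 ± 8.16 and 43.3 ± 2.98 CPM and was the highest of them, while Emr1 and Itgam, defining macrophage genes, had 12.4 ± 3.59 and 7.36 ± 2.97 CPM in WT. The part of these markers in the GIMAP differences was not tested.

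Defining genes of T cells, which are known to express GIMAP genes, were near 0 in GC libraries. Cd3e, Cd3d, Cd3g and Trac summed to 0.81 to 1.86 CPM in WT and 0.62 to 1.19 CPM in KO, beside 1114 to 1222 and 766 to 815 CPM for the 8 GIMAP genes. Of 20 T-cell markers 12 were tested, and 1 (Thy1) was higher and 2 (Cd2 and Lck) lower, beside 1.92% and 4.57% of all genes. The full list summed to 366 to 398 CPM in WT and 263 to 305 CPM in KO, nearly all of it Cd2 (170.0 ± 21.1 CPM in WT) and Lck (193 ± 24.2 CPM in WT). Without those 2 genes it summed to 12.5 to 19.4 CPM in WT and 17.5 to 22.2 CPM in KO. NK-cell markers summed to at most 3.78 CPM in GC libraries, and of 3 tested 1, Prf1, was lower, beside 4.57% of all genes, with the list's Klra8 at 0 in WT. Endothelial markers had 0 of 2 called in edgeR and DESeq2 and 1, Pecam1, at an unadjusted p under 0.05. They summed to 103 to 121 CPM in WT and 75.5 to 101 CPM in KO, nearly all of it Pecam1 (108 ± 8.07 CPM in WT), with Emcn and Robo4 at 0 in both groups. In lymphoma libraries the 4 defining T-cell genes summed to 3.02 to 15.8 CPM in controls and 4.22 to 7.31 CPM in shTet2. In lymphoma cells edgeR called 0 of 13 myeloid and 0 of 19 T-cell markers, with 3 of each at an unadjusted p under 0.05, and DESeq2 called 1 of each. The part of the markers in this paragraph was not tested.

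The genes whose profile over the 14 libraries was most like the mean of the 8 members were Abcc4, Psap, Spg20, Ctss and Etv6. Likeness was the root mean square distance between log2 CPM profiles on the common scale, each centred on its own mean, among 12490 genes, for which the median distance was 0.80. The members themselves lay 0.17 (Gimap6) to 0.72 (Gimap1) from that mean, farther than each of these 5 genes, so likeness to the mean is not likeness to any 1 member. Abcc4, a membrane transporter of organic anions, was nearest at 0.11, with 28.7 ± 1.17 CPM in WT, 20.3 ± 1.06 in KO, 35.9 ± 3.60 in control lymphoma and 38.4 ± 6.07 in shTet2. Psap, the precursor of lysosomal saposins, followed at 0.14, and Ctss, a lysosomal protease of antigen presentation, was at 0.16. Spg20 was at 0.15 and Etv6, a transcription factor of the ETS family, at 0.16.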

How the data were processed

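RNA of mouse spleen B cells was prepared with Trizol, an RNeasy kit and a stranded TruSeq mRNA kit, per the labels' protocols. Reads were aligned with STAR 2.3.0e to GRCm38.p3, per the submitters' processing notes, and the authors deposited whole-number counts from featureCounts 1.5.1, summed over GENCODE vM3 exons without strand, paired-end or multi-overlap options, per the file headers. The files hold 2 tables of 41053 gene rows and 14 libraries, and the deposited exon lengths were used for CPM per kb. No columns were left out.

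Counts were tested with edgeR 4.0.16 in R 4.3.3 (TMM factors, filterByExpr, robust quasi-likelihood, Benjamini-Hochberg adjustment over all genes tested, threshold 0.05), per table for the 2 comparisons and over 14 libraries for the other contrasts. Standard errors are the absolute log2 fold change divided by the root of the F statistic. Profiles used a prior count of 2. The fits were tested on simulated data.

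The members, gene lists and tests were chosen with earlier results of these data known. Named genes were all members, Tet2, tested rows within 300 kb without predicted or clone-based symbols, up to 3 called (or otherwise 2 nearest) per pathway list and comparison, the highest 3 per marker list and the 5 nearest profiles. Genes called in a list but outside this rule (S1pr1, Cd55, Thy1, Fas, Csf1r, Vcam1) were named after their values were seen, and a called list gene is not reported here. The list symbol Ighd was not matched. Promoter sequences are from RefSeq (GRCm38.p6). The labels do not say that libraries came from separate animals, so the spread that p-values measure may be technical. Libraries of a group differed by more than counting error in every pair. Library sizes and alternatives (scaling, DESeq2 1.42.0, filters, a 14-library model, the replicate number as a block, leaving out each library, and, chosen after seeing the data, removing 8 rows above 1% of a lymphoma library) limit precision as given in the closing section.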

Additional observations from a re-analysis of the deposited data

Results flagged for a closer look

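For 9 of the genes chosen by the naming rule the shTet2 effect in lymphoma B cells and the KO effect in GC B cells differed by a contrast of the 2 effects over all 14 libraries (edgeR's quasi-likelihood test with Benjamini-Hochberg adjustment). Values are log2 differences, lymphoma minus GC, and 4.99% of 15441 genes were called. Among the GIMAP genes the difference was 1.42 for Gimap4, 1.41 for Gimap7 and 1.25 for Gimap3, each with a GC effect below -1.0 and a lymphoma effect between 0.24 and 0.36, and these are descriptions because the family was proposed with the results in view. Cd38, a gene of resting B cells, differed by 1.02 (-0.97 in GC and 0.08 in lymphoma cells, edgeR adjusted p = 5.04e-04). Bach2 differed by -0.94 (0.33 and -0.59, edgeR adjusted p = 0.00618), in the other direction. Lck, a kinase of antigen receptor signalling, differed by 1.30 (-0.54 and 0.79, edgeR adjusted p = 0.00604). The macrophage genes Itgam and Emr1 differed by 3.34 (-1.43 and 1.94, edgeR adjusted p = 0.0463) and 2.69 (-1.34 and 1.38, edgeR adjusted p = 0.00192). The lymphoma effects of Itgam, Emr1 and Lck moved with single shTet2 libraries. Without shTet2 replicate 2 they were -0.16, 0.60 and 0.26, and without replicate 1 they were 2.77, 1.88 and 1.19. The difference of effects with a library left out is not given for these 3 genes. Of list genes named after their values were seen, Fas, Csf1r and Vcam1 also differed by 1.30, 1.31 and 2.40 (edgeR adjusted p = 5.04e-04, 0.0351 and 0.0046). S1pr2 differed by 2.81 (-0.12 and 2.73, edgeR adjusted p = 0.00145). No library stood out from its group for a GIMAP gene or a neighbouring row in 31 groups of 4 or 5 libraries examined. The smaller groups, WT GC (n = 3) and shTet2 lymphoma (n = 2), were not examined.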

How the results depend on the processing

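Over 15 alternatives per comparison, each of the 8 members stayed lower in KO GC B cells. The number past the threshold was 7 as reported, and 8 with upper-quartile scaling, DESeq2, no filter or a filter at 1 CPM. It was 4 in a model of all 14 libraries and 3 with the replicate block. With each library left out in turn it was 4 to 7, and the median of the members was -0.47 to -0.38 (-0.36 in the 14-library model). The lymphoma members past the threshold numbered 0 under all settings that kept both shTet2 libraries. In lymphoma cells Gimap4, Gimap8, Gimap9, Gimap1 and Gimap5 changed sign under at least 1 alternative, Gimap4 to -0.09 without shTet2 replicate 2. The genes of all kinds called higher in KO (261) numbered 443 with DESeq2, 504 without a filter and 149 to 362 with a library left out, and those called lower (622) numbered 388 in the 14-library model and 353 with the replicate block. In lymphoma, 235 higher and 95 lower became 521 and 261 without a filter, 662 and 178 in the 14-library model, 3 and 1 with the replicate block and 82 to 1303 and 18 to 1178 with a library left out, and DESeq2 called 241 lower. For the difference of effects, 523 higher and 248 lower became 219 to 1200 and 64 to 801 with a library left out, DESeq2 called 479 lower, and the members' median (0.40) ranged from 0.25 to 0.51. For control lymphoma against WT, the members' median (0.39) was 0.53 with median-of-ratios factors and with DESeq2, 0.80 with upper-quartile factors and 0.28 without a filter.

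Rows near the cluster past the threshold in GC B cells (4) numbered 2 in the 14-library model, 1 with the replicate block and 2 to 3 with a library left out, and in lymphoma cells 0 to 1. The partner and survival list (1 in GC cells) gave 2 with DESeq2 and without a filter, 0 in the 14-library model and with the block, and 0 to 1 with a library left out, and in lymphoma cells 0 to 2. The resting and naive list (6 in GC cells) gave 10 without a filter and 3 in the 14-library model, and in lymphoma cells (0) 6 with DESeq2, 4 without a filter and in the 14-library model, and 0 to 15 with a library left out. The lymphoma ranges include the fit without shTet2 replicate 1, in which calls over all genes were also at their highest. The cause of these changes was not tested. Only 2 replicate numbers are shared in each comparison and same-numbered libraries did not deviate together (correlations -0.039 to 0.029), so the number served only as a name and the block removes libraries' degrees of freedom without a stated pairing. Gimap5 in lymphoma libraries, at 102 to 396 counts, is the member for which depth limits precision most.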

Other observations

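The myeloid genes that fell in the libraries labelled KO of the GC B cells, beyond those named in the report, included the complement subunits C1qa (log2 fold change -1.32, SE 0.21, edgeR adjusted p = 0.0012), C1qb (-1.30, SE 0.25, edgeR adjusted p = 0.00417) and C1qc (-1.02, SE 0.27, edgeR adjusted p = 0.0325). Csf1r, the receptor for a macrophage growth factor, had -1.14 (SE 0.22, edgeR adjusted p = 0.00531) and Vcam1, an adhesion molecule of stroma and macrophages, had -1.30 (SE 0.22, edgeR adjusted p = 0.00191). Thy1, a T-cell surface protein, rose from 0.41 ± 0.23 to 2.31 ± 0.16 CPM (log2 fold change 2.51, SE 0.35, edgeR adjusted p = 3.51e-04), at a level far below that of any GIMAP gene. These genes were named after their values were seen.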
